A study of Homo sapiens with 30 samples.

Results

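Transcript levels of 10 genes that are widely used to describe a mesenchymal state, or that belong to or report on the YAP pathway, were followed in neuroblastoma cells after knockdown oligonucleotides had been transfected. The genes were given by name (VIM, FN1, SNAI2, TWIST1, YAP1, WWTR1, CCN1, CCN2, CD44 and NOTCH2), with no threshold on their values. All 10 were found by Ensembl gene ID in each of 3 tables, which held 62710 genes for IMR32 and 57905 genes each for NGP and SK-N-BE(2)c. IMR32, NGP and SK-N-BE(2)c are established human neuroblastoma lines. Every group had been transfected by lipofection with 100 nM of an antisense oligonucleotide (ASO), so no group is untransfected. ASO1, ASO2 and ASO10 target NESPR, a long non-coding RNA, and NCA is the negative control ASO. IMR32 had 4 libraries each of ASO1, ASO2 and NCA, while NGP and SK-N-BE(2)c had 3 libraries each of ASO2, ASO10 and NCA. Each line stands for a single tumour-derived line, and the time from transfection to harvest is not given in the sources used here. The labels do not say that replicates were separate cultures, so the p-values measure the spread between these libraries, which may be technical.

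Neuroblastoma cells can take an adrenergic state, with a sympathetic neuron-like programme, or a mesenchymal state, with a motile, matrix-rich and neural crest-like programme. In the Hippo pathway, the kinases LATS1 and LATS2 hold the co-activators YAP1 and TAZ (the product of WWTR1) in the cytoplasm. When released, YAP1 and TAZ bind the TEAD factors in the nucleus and drive genes such as CCN1 and CCN2. NOTCH2 is a receptor of the Notch pathway, whose activation has been tied to the mesenchymal state in this tumour.

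The values are the authors' normalized gene counts. Recovered reads, the whole read numbers behind them, numbered 9393587 to 13932379 per IMR32 library, 11591178 to 13795561 per NGP library and 11497829 to 15060356 per SK-N-BE(2)c library. All 12 adrenergic markers (among them HAND2 and DBH) had over 3 reads in every group. Of 7 fibroblast markers, FAP had 0 reads in 8 of the 9 groups, and of 5 Schwann cell markers, SOX10 had 0 reads in 5 groups. Outside IMR32, control replicate 1 has a column spelled NCA and replicates 2 and 3 have columns spelled NCA2; the labels put all in the control group and do not settle whether another control oligonucleotide was used. In bulk RNA, fewer cells of a type and less RNA per cell cannot be told apart.

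The members split into abundant and nearly silent genes, and the split was not the same in each line. Levels between genes are given as RPKM (recovered reads per kilobase of exon, scaled to the library's total reads) in the control libraries (n = 4 in IMR32, n = 3 elsewhere). TWIST1, a bHLH transcription factor of the neural crest, led in IMR32 with 86.1 ± 1.95 (SD), above VIM, the mesenchymal intermediate filament, with 34.5 ± 2.83. CCN1 at 3.64 ± 0.60 and FN1 (fibronectin) at 2.32 ± 0.209 followed in IMR32. YAP1 at 0.558 ± 0.0910 and SNAI2 (the repressor Slug) at 0.502 ± 0.139 came next and overlapped. CD44 (the hyaluronan receptor) at 0.205 ± 0.0472, WWTR1 at 0.132 ± 0.0370, CCN2 at 0.0890 ± 0.0842 and NOTCH2 at 0.0209 ± 0.0173 closed the order, each overlapping its neighbour. In NGP, VIM led with 145 ± 2.12, ahead of TWIST1 at 67.9 ± 3.85, SNAI2 at 6.50 ± 0.737, FN1 at 1.83 ± 0.0809, CCN1 at 0.478 ± 0.0321 and NOTCH2 at 0.205 ± 0.0326. CD44 at 0.0655 ± 0.0377 and WWTR1 at 0.0153 ± 0.00571 were lower still in NGP, and YAP1 and CCN2 had no read there in control libraries. In SK-N-BE(2)c, VIM at 40.4 ± 1.22, TWIST1 at 30.8 ± 1.22, SNAI2 at 3.09 ± 0.419 and CD44 at 0.497 ± 0.0786 did not overlap, and the other 6 members lay at 0.0325 or below and overlapped in order.

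**Figure D1:**
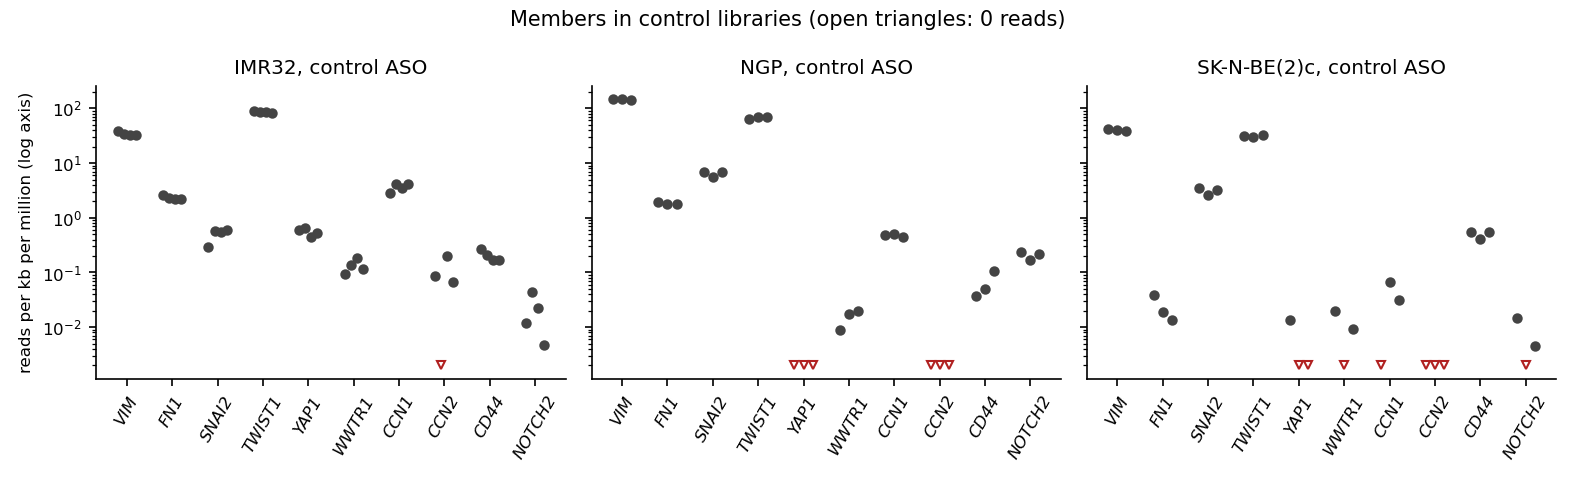
RPKM (log axis) of the 10 members in each control library, by line. VIM and TWIST1 lie highest in all 3 lines, and open triangles mark libraries with 0 reads, which include every NGP control library for YAP1 and CCN2.

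YAP1 was present in IMR32 and at the floor in the other lines. In IMR32, its reads were 50, 30, 29 and 34 with ASO1, 68, 56, 37 and 42 with ASO2, and 38, 39, 30 and 41 with NCA. All 9 NGP libraries had 0 reads of YAP1. Taken singly, a library with 0 reads allows up to 3 by counting error alone, and the 9 together allow fewer in each. In SK-N-BE(2)c, YAP1 had 0 reads in every ASO2 library, 2, 4 and 0 with ASO10, and 1, 0 and 0 with NCA. WWTR1 had 8 to 20 reads per IMR32 library, 0 to 6 per SK-N-BE(2)c library and 1 to 10 per NGP library. CCN2, the most used readout of YAP1 and TAZ activity, had 0 to 7 reads in IMR32, 2 reads in a single ASO2 library and none in the other 8 in NGP, and 0 reads in all 9 SK-N-BE(2)c libraries. NOTCH2 reads were highest in NGP (9 to 52), with 0 to 8 per SK-N-BE(2)c library and 1 to 7 per IMR32 library. Thus no library of any line held more than 7 reads of CCN2.

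**Figure D2:**
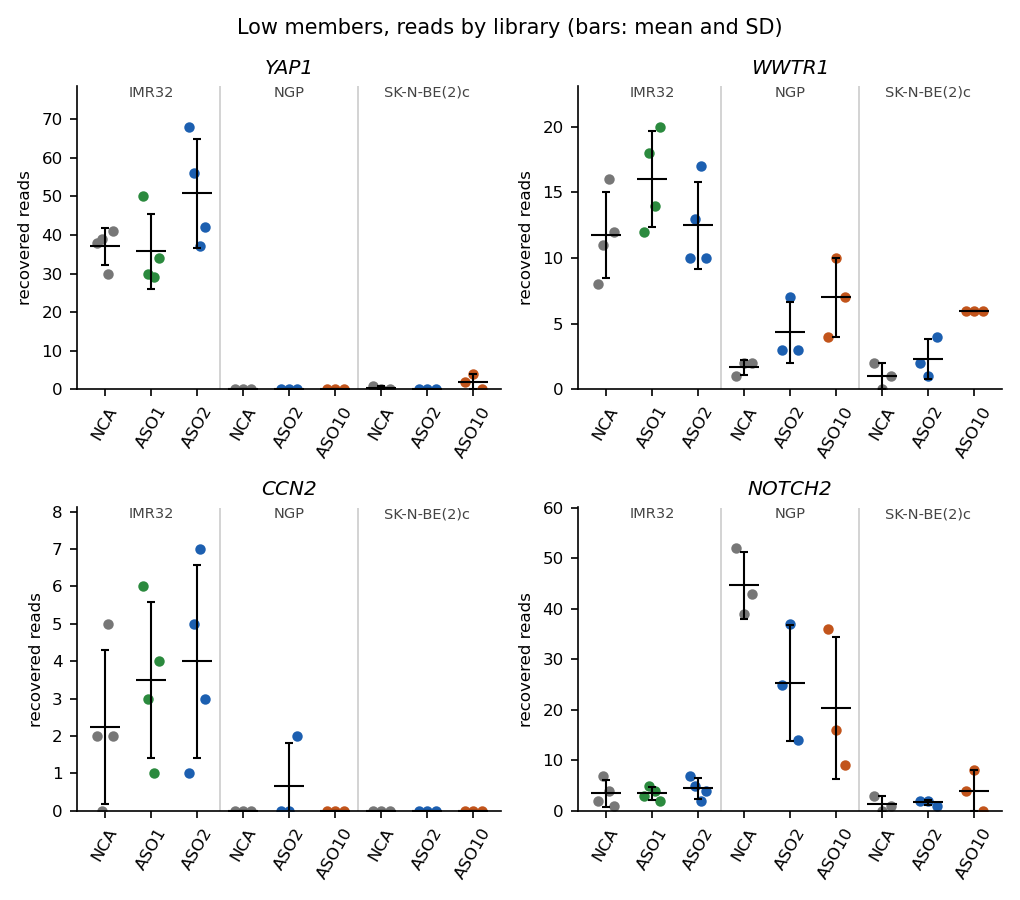
Recovered reads per library (linear axis from 0) of YAP1, WWTR1, CCN2 and NOTCH2 in each group, with mean and SD as bars. YAP1 is above 20 reads only in IMR32 and NOTCH2 only in NGP.

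The promoters of CCN2 and YAP1 are shown because they hold the letters that TEAD factors recognise, and because both transcripts were at or near 0 in NGP and SK-N-BE(2)c. RefSeq promoters (GRCh38.p14) were given for 7 of the 10 members. In the 250 bases before the start, GGAATG or its reverse complement CATTCC stood 3 times in CCN2 and 1 time in YAP1, and in 11.9% of all 35116 promoters. Capitals mark GGAATG below, 5′ to 3′ on the gene's strand. The CCN2 stretch is chr6:131951453-131951552 on the minus strand (180 to 81 bases before the start), and the YAP1 stretch is chr11:102110247-102110326 on the plus strand (200 to 121 bases before the start).
CCN2: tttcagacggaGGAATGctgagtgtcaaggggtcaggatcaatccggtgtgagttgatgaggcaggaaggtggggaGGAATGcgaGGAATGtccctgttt
YAP1: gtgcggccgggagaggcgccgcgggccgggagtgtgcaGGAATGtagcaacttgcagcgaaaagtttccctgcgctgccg
No TEAD letters stood in the windows of VIM, FN1, WWTR1, CD44 and NOTCH2. A match describes the letters of the window and is no measure of binding.

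Against NCA, the members that changed did so in opposite directions: VIM, SNAI2 and CCN1 were higher wherever they passed the test, while TWIST1, FN1, CD44 and NOTCH2 were lower. VIM rose in 5 of 6 ASO groups, SNAI2 in 4 of 6 and CCN1 in 3 of the 4 in which it could be tested. TWIST1 fell in 5 of 6, FN1 in 2 of the 4 tested, CD44 in 1 of 4 and NOTCH2 in 1 of 2. YAP1 and WWTR1 were tested in IMR32 only and did not pass there, and CCN2 was too low to be tested in any line. A member was tested where its mean normalized count over the line was at least 10, and was called at a limma adjusted p under 0.05 over all genes tested. Of the 10 members, 8 passed this filter for IMR32, 6 for NGP and 4 for SK-N-BE(2)c. Changes are given as log2 fold changes of the normalized count plus 1, ± SE, a scale that understates changes of low genes. Both ASOs of a line were compared with the same control libraries, so their results are not independent.

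**Figure D3:**
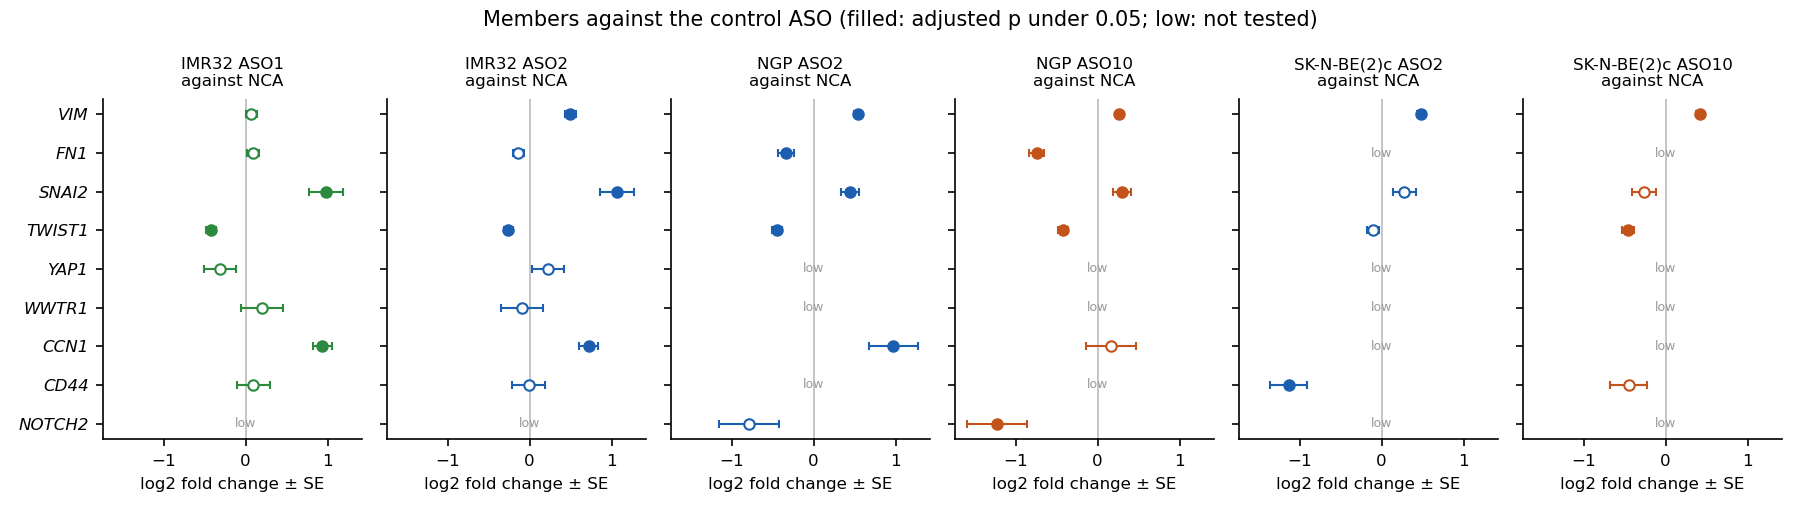
Log2 fold change ± SE of each tested member against the control ASO, with a panel for each ASO group. Filled points passed an adjusted p under 0.05 and "low" marks members below the filter; VIM is filled in 5 panels and TWIST1 in 5, on opposite sides of 0.

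In IMR32, 2 members were higher with ASO1 (SNAI2 and CCN1) and 1 was lower (TWIST1) of 8 tested, where 13.6% of all 17309 genes tested were called higher and 14.4% lower. With ASO2, 3 were higher (VIM, SNAI2 and CCN1) and 1 lower (TWIST1), beside 17.6% and 14.8% of all genes. The median log2 fold change of the 8 members was 0.09 with ASO1 and 0.11 with ASO2, while all genes had medians of -0.003 and -0.001. In NGP, ASO2 gave 3 higher (VIM, SNAI2 and CCN1) and 2 lower (FN1 and TWIST1) of 6, beside 30.6% and 28.1% of all 14440 genes. ASO10 in NGP gave 2 higher (VIM and SNAI2) and 3 lower (FN1, TWIST1 and NOTCH2), beside 26.8% and 27.6%. In SK-N-BE(2)c, ASO2 gave 1 higher (VIM) and 1 lower (CD44) of 4, beside 33.6% and 33.4% of all 13556 genes. ASO10 there gave 1 higher (VIM) and 1 lower (TWIST1), beside 27.8% and 31.1%. Calls were common among all genes, and with 4 to 8 members tested the members' counts are to be read against that background. When every SK-N-BE(2)c library was rescaled to the same total, ASO2 called 3503 genes higher and 5622 lower in place of 4555 and 4523, and the median of all genes moved from -0.016 to -0.153. The members' median was 0.05 with ASO2 and -0.13 with ASO10 for the 6 tested NGP members, and 0.09 and -0.36 for the 4 tested SK-N-BE(2)c members. Both ASO2 medians changed sign under this rescaling, to -0.02 and -0.05.

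VIM, the intermediate filament gene that was among the 2 most abundant members in each line, rose with ASO2 in all 3 lines. In IMR32, its normalized counts were 2929.5, 2959, 2799 and 2970 with ASO2, against 2365.5, 2035, 1946 and 1949.5 with NCA. Every ASO2 library lay above every control library, with a log2 fold change of 0.49 ± 0.07 (1.41-fold, limma adjusted p = 1.76e-05). With ASO1 the counts were 2534, 2062, 2039 and 2068, which overlapped the controls (0.07 ± 0.07, limma adjusted p = 0.497). The difference between the ASOs was itself past the threshold (ASO1 against ASO2, -0.43 ± 0.07, limma adjusted p = 0.000117). In NGP, VIM stood at 13297, 12770 and 13719 with ASO2, 11201, 11225 and 10478 with ASO10, and 9148, 9214 and 9042 with NCA. The 3 groups did not overlap, and both ASOs differed from NCA (ASO2, 0.54 ± 0.04, limma adjusted p = 1.55e-10; ASO10, 0.26 ± 0.04, limma adjusted p = 1.64e-05). VIM in SK-N-BE(2)c stood at 3660, 3600 and 3586 with ASO2, 3368, 3620 and 3420 with ASO10, and 2675, 2575 and 2529 with NCA. Both ASO groups lay above the controls (0.48 ± 0.05 and 0.42 ± 0.05, limma adjusted p = 3.25e-09 and 6.39e-08) and overlapped each other. Reads of 2 antisense genes that overlap VIM exons cannot be told apart from VIM, as the use of strand in counting is not given in the sources used here; the more abundant of them, VIM-AS1, had a mean normalized count of 6.57 to 17.6 over a line.

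Fibroblast markers moved in some of the groups in which VIM rose. Their summed normalized count in NGP was 988 to 1020 with ASO2, 578 to 680 with ASO10 and 619 to 683 with NCA, with FAP at 0 in each. For SK-N-BE(2)c it was 1244 to 1317 with ASO2, 896 to 1089 with ASO10 and 1125 to 1183 with NCA, and in IMR32 it was 1714 to 1801 with ASO2, 1382 to 1515 with ASO1 and 1494 to 1532 with NCA. The sum was thus above the controls in each ASO2 group. With ASO10, where VIM rose too, it overlapped the controls in NGP and lay below them in SK-N-BE(2)c. In NGP, 5 of the 6 tested markers rose with ASO2 and 0 fell, beside 30.6% and 28.1% of all genes. With ASO10 there, 2 rose and 0 fell, beside 26.8% and 27.6%. DCN, counted with both ASOs, had a control mean of 5.89 and passed the filter only through the ASO groups. LUM, the small proteoglycan lumican, rose with ASO2 to a mean of 204 ± 14.2 (SD, n = 3) from 69.3 ± 1.60 (log2 fold change 1.54, limma adjusted p = 3.16e-09). It also rose with ASO10 (0.45, limma adjusted p = 0.0125). For SK-N-BE(2)c, 3 of 4 rose and 1 fell with ASO2, beside 33.6% and 33.4%. The one that fell was PDGFRB, which fell there with both ASOs (-0.28 and -0.23, limma adjusted p = 0.00392 and 0.0187). With ASO10 in SK-N-BE(2)c, 0 of 4 rose and 1 fell, beside 27.8% and 31.1%. PDGFRB also fell in IMR32 with ASO1 (-0.50, limma adjusted p = 4.02e-05), and was not called with ASO2 there or in NGP. Of 4 markers tested in IMR32, 2 rose and 0 fell with ASO2, beside 17.6% and 14.8% of all genes. With ASO1, 0 rose and 1 fell, beside 13.6% and 14.4%. Schwann cell markers, of which 2 of 5 had over 3 reads in NGP, summed to 67.1 to 81.8 with ASO10, 11.1 to 26.0 with ASO2 and 17.4 to 30.1 with NCA, with SOX10 at 0 in the last 2 groups. The part of these markers in the members' results was not tested.

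TWIST1 fell with both ASOs in IMR32 and NGP, and with ASO10 in SK-N-BE(2)c. In IMR32, its normalized counts were 1579, 1473, 1438 and 1593 with ASO1, 1822, 1830.5, 1575.5 and 1587 with ASO2, and 2137, 2029, 2015 and 1962 with NCA. Both ASO groups lay below all controls, by -0.42 ± 0.06 (1.34-fold lower, limma adjusted p = 1.11e-05) and -0.26 ± 0.06 (limma adjusted p = 0.00152). In NGP, the counts were 1283, 1214 and 1209 with ASO2, 1290, 1243 and 1224 with ASO10, and 1569, 1759 and 1729 with NCA. The ASO groups overlapped each other and lay below the controls (-0.45 ± 0.06 and -0.43 ± 0.06, limma adjusted p = 8.86e-07 and 2.01e-06).

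TWIST1 in SK-N-BE(2)c stood at 577, 551 and 570 with ASO10 and at 776, 748 and 816 with NCA, so that it fell by 0.46 ± 0.07 on the log2 scale (limma adjusted p = 2.47e-06). With ASO2 it stood at 759, 699 and 717, which overlapped the controls (-0.11 ± 0.07, limma adjusted p = 0.189). Rescaling every library to the same total took this ASO2 difference to -0.24 and past the threshold (limma adjusted p = 0.00347). An antisense gene that shares 141 exon bases with TWIST1, and whose reads cannot be told apart from it, had a mean normalized count of 12.8 to 22.5 over a line.

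SNAI2, which encodes the repressor Slug and is among the regulators of neural crest delamination, moved opposite to TWIST1 in IMR32 and NGP. In IMR32 it was low, at 38.3, 40.9, 32.2 and 44.3 with ASO1, 36.0, 53.7, 36.8 and 40.0 with ASO2, and 11.8, 22.2, 22.0 and 22.97 with NCA. No ASO library overlapped a control, and SNAI2 rose by 0.98 ± 0.21 with ASO1 (1.97-fold, limma adjusted p = 0.00112) and by 1.07 ± 0.21 with ASO2 (limma adjusted p = 0.000540). In NGP, SNAI2 stood at 392, 322 and 384 with ASO2, 335, 286 and 372 with ASO10, and 289, 234 and 285 with NCA. It rose with ASO2 without overlap (0.44 ± 0.11, limma adjusted p = 0.00138) and with ASO10 with overlap (0.30 ± 0.11, limma adjusted p = 0.0267). The ASO10 call was lost without NGP ASO10 replicate 1, NGP ASO10 replicate 3 or NGP NCA replicate 2 (limma adjusted p = 0.0756, 0.154 and 0.147).

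SNAI2 in SK-N-BE(2)c stood at 155, 148 and 170 with ASO2, 119, 116 and 91.2 with ASO10, and 146.5, 111 and 134 with NCA. The ASO2 libraries lay above the controls and the ASO10 libraries overlapped them, and neither ASO passed against NCA (0.28 ± 0.14 and -0.26 ± 0.14, limma adjusted p = 0.0860 and 0.115), but the ASOs differed from each other without overlap (ASO2 against ASO10, 0.54 ± 0.14, limma adjusted p = 0.00154). Leaving out SK-N-BE(2)c NCA replicate 1 brought the ASO2 difference past the threshold (0.37, limma adjusted p = 0.0461), and leaving out SK-N-BE(2)c NCA replicate 2 did so for ASO10 (-0.37, limma adjusted p = 0.0431).

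FN1, which encodes the matrix glycoprotein fibronectin, fell with both ASOs in NGP and was not called elsewhere. In NGP it stood at 322, 326 and 274 with ASO2, 225, 228 and 240 with ASO10, and 405, 377.5 and 380.5 with NCA. The 3 groups did not overlap (ASO2, -0.34 ± 0.10, limma adjusted p = 0.00377; ASO10, -0.74 ± 0.10, 1.68-fold lower, limma adjusted p = 3.71e-07). In IMR32, FN1 ranged from 470 to 537 with ASO1, from 414 to 446 with ASO2 and from 431 to 539 with NCA, and neither ASO passed (0.09 ± 0.07 and -0.14 ± 0.07, limma adjusted p = 0.358 and 0.138). Rescaling to the same total brought the ASO2 difference to -0.17 and past the threshold (limma adjusted p = 0.0395). FN1 in SK-N-BE(2)c had 1 to 8 reads in a library, and its 9 reads with ASO2 and 12 with ASO10 against 15 with NCA gave ratios of 0.630 (95% exact Clopper-Pearson interval 0.243 to 1.54) and 0.743 (0.317 to 1.70), so that a difference was not detectable at this depth. Intervals and limits from counts cover counting error only.

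The promoter of FN1 is shown because FN1 fell with both ASOs in NGP, and its window holds a full cyclic AMP response element. The letters TGACGTCA, which read the same on both strands, stood in FN1 and in 1.65% of all promoters, and in no other member with a promoter entry. Capitals mark the element in chr2:215436209-215436288 on the minus strand (220 to 141 bases before the start).
FN1: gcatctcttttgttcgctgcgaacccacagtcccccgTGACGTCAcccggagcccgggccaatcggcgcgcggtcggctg
The AP-1 letters TGANTCA (6.57% of all promoters, both strands) and the Snail-type E-box CAGGTG or CACCTG (17.5%) stood in none of the 7 members' windows.

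**Figure D4:**
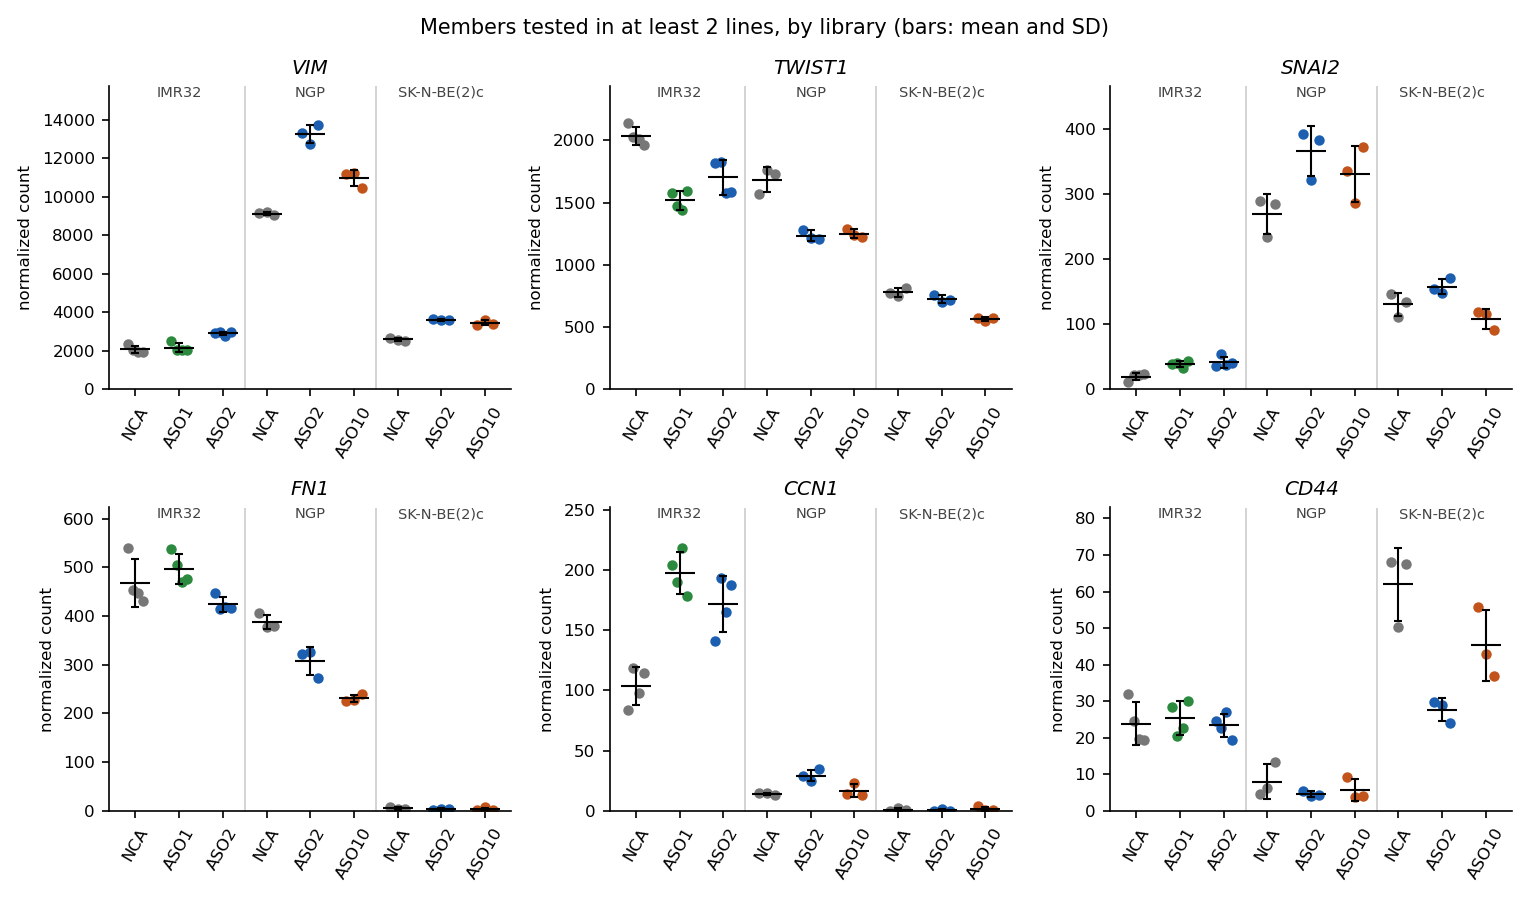
Normalized counts per library (linear axes from 0) of the 6 members tested in at least 2 lines, by group, with mean and SD as bars. VIM lies above and TWIST1 below the controls in most ASO groups, and FN1 and CCN1 are near 0 in SK-N-BE(2)c.

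CCN1, a secreted matricellular protein gene driven by YAP1 and TAZ, rose in IMR32 with both ASOs. It stood at 204, 190, 218 and 178 with ASO1, 141, 193, 165 and 187 with ASO2, and 83.8, 118, 97.8 and 115 with NCA. All ASO libraries lay above all controls (0.93 ± 0.12, 1.91-fold, limma adjusted p = 4.65e-06; 0.73 ± 0.12, limma adjusted p = 9.83e-05). In NGP, CCN1 was low, at 28.8, 24.7 and 34.5 with ASO2, 14.3, 22.8 and 12.8 with ASO10, and 14.6, 15.1 and 13.3 with NCA. It rose with ASO2 without overlap (0.97 ± 0.30, limma adjusted p = 0.00780) and overlapped the controls with ASO10 (0.16 ± 0.30, limma adjusted p = 0.672). In SK-N-BE(2)c the libraries held 0 to 4 reads of CCN1.

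CD44 was called in SK-N-BE(2)c alone, although this was not tested as a difference from IMR32. There it stood at 29.8, 29.01 and 24.0 with ASO2, 55.8, 43.0 and 37.0 with ASO10, and 68.0, 50.4 and 67.5 with NCA. The ASO2 libraries lay below all others, and CD44 fell by 1.13 ± 0.23 on the log2 scale (2.19-fold lower, limma adjusted p = 6.94e-05). ASO10 overlapped the controls (-0.45 ± 0.23, limma adjusted p = 0.0860), and this difference passed without SK-N-BE(2)c ASO10 replicate 1 or SK-N-BE(2)c NCA replicate 2 (-0.61 and -0.59, limma adjusted p = 0.0395 and 0.0495). In IMR32, CD44 ranged from 19.3 to 31.9 over all 12 libraries with overlap of the groups (0.10 ± 0.20 with ASO1, -0.01 ± 0.20 with ASO2, limma adjusted p = 0.766 and 0.975). In NGP it had 4 to 13 reads in a library, and the ratios to NCA were 0.60 (0.288 to 1.20) with ASO2 and 0.715 (0.362 to 1.38) with ASO10.

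NOTCH2 could be tested in NGP only. It stood at 23.2, 36.5 and 15.6 with ASO2, 36.7, 15.2 and 8.88 with ASO10, and 47.4, 34.6 and 44.1 with NCA, so that the ASO libraries spread widely and both groups overlapped the controls. With ASO10 it fell by 1.23 ± 0.36 on the log2 scale (limma adjusted p = 0.00632), which became -0.79 without NGP ASO10 replicate 3 (limma adjusted p = 0.0654). With ASO2 the difference was -0.79 ± 0.36 (limma adjusted p = 0.0668). It passed without NGP ASO2 replicate 2 (-1.09, limma adjusted p = 0.0288), NGP ASO10 replicate 1 (-0.79, limma adjusted p = 0.0335), NGP ASO10 replicate 3 (-0.79, limma adjusted p = 0.0345) or NGP NCA replicate 2 (-0.92, limma adjusted p = 0.0483). It also passed with a pseudocount of 5 (-0.69, limma adjusted p = 0.0496) and after rescaling to the same total (limma adjusted p = 0.0485). NOTCH2 shares long stretches with the near-identical NOTCH2NL genes, so its counts are uncertain.

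YAP1 and WWTR1, the co-activators themselves, did not pass in IMR32. YAP1 differed by -0.31 ± 0.20 with ASO1 and 0.22 ± 0.20 with ASO2 (limma adjusted p = 0.252 and 0.414), and WWTR1 by 0.20 ± 0.26 and -0.09 ± 0.26 (limma adjusted p = 0.616 and 0.818). Below the filter, WWTR1 had 13 reads with ASO2, 21 with ASO10 and 5 with NCA over the NGP groups, and 7, 18 and 3 over the SK-N-BE(2)c groups. The ratio of ASO10 to NCA was 4.41 in NGP (counting interval 1.62 to 15.0) and 5.57 in SK-N-BE(2)c (1.63 to 29.5), and that of ASO2 to NCA was 2.79 (0.932 to 9.98) and 2.45 (0.560 to 14.7). The ASO10 libraries also held reads of more genes than the controls: 23722 to 23934 genes with a read against 21615 to 22030 in NGP, and 21518 to 21815 against 19939 to 20327 in SK-N-BE(2)c. With ASO2 the ranges were 21253 to 21920 and 19235 to 20236. The part of this gain of low genes in the WWTR1 ratios was not tested.

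Compared directly, the ASOs of a line gave different levels for several members. ASO1 and ASO2 in IMR32 differed for 3 of 8 members, with FN1 higher with ASO1 (beside 9.17% of all genes) and VIM and TWIST1 lower (beside 12.8%). FN1 differed by 0.23 ± 0.07 (limma adjusted p = 0.0220) and TWIST1 by -0.16 ± 0.06 (limma adjusted p = 0.0449). The FN1 call was lost without IMR32 ASO1 replicate 1 or 2 or IMR32 ASO2 replicate 2 or 4 (limma adjusted p = 0.0517 to 0.0595). The TWIST1 call was lost without IMR32 ASO1 replicate 2 or 3, IMR32 ASO2 replicate 1 or 2, or IMR32 NCA replicate 2, 3 or 4 (limma adjusted p = 0.0546 to 0.162), and also after rescaling to the same total, after TMM scaling and without the filter (limma adjusted p = 0.122, 0.0593 and 0.0876). YAP1 differed by -0.54 ± 0.20 (limma adjusted p = 0.0547), and this passed without IMR32 ASO1 replicate 1 (-0.70, limma adjusted p = 0.0100) or IMR32 ASO2 replicate 3 (-0.70, limma adjusted p = 0.0134).

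In NGP, 3 of 6 members were higher with ASO2 than with ASO10 (VIM, FN1 and CCN1) and 0 lower, beside 30.6% and 28% of all genes. VIM differed by 0.27 ± 0.04, FN1 by 0.41 ± 0.10 and CCN1 by 0.81 ± 0.30 (limma adjusted p = 7.64e-06, 0.000743 and 0.0241). The 0 lower members stayed 0 with edgeR on recovered reads, and none had an unadjusted p under 0.05. The CCN1 call was lost without NGP ASO2 replicate 1 or 3 or NGP ASO10 replicate 1 or 3 (limma adjusted p = 0.0532 to 0.0975) and without the filter (limma adjusted p = 0.0723), and NOTCH2 passed without NGP ASO10 replicate 1 (0.96 in place of 0.44, limma adjusted p = 0.0223). In SK-N-BE(2)c, SNAI2 and TWIST1 were higher with ASO2 than with ASO10 and CD44 was lower, beside 34.6% and 30.8% of all genes. TWIST1 differed by 0.36 ± 0.07 and CD44 by -0.68 ± 0.23 (limma adjusted p = 6.82e-05 and 0.00970), and the CD44 call was lost without SK-N-BE(2)c ASO10 replicate 1 (-0.52, limma adjusted p = 0.0730).

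The tables of SK-N-BE(2)c and NGP shared a scale, so their control libraries were compared in a joint fit of all 18 libraries. Over all 14537 genes of that fit, 37.3% were called higher in SK-N-BE(2)c and 39.8% lower. VIM, SNAI2 and TWIST1 passed the filter on low values in both lines. CD44, FN1, CCN1 and NOTCH2 entered the joint fit only through the line in which they are high, so they had to differ and are given as levels, with no test and no count. CD44 stood at 50.4 to 68.0 in SK-N-BE(2)c controls and at 4.55 to 13.3 in NGP controls. VIM was 3.52-fold lower (-1.82 ± 0.04), TWIST1 2.16-fold lower (-1.11 ± 0.06) and SNAI2 2.06-fold lower (-1.04 ± 0.13), with limma adjusted p from 1.58e-21 to 1.66e-07. Over the control libraries, FN1 had 15 reads in SK-N-BE(2)c against 1242 in NGP. NOTCH2 had 4 against 134 reads and CCN1 3 against 46. A line is a single line here, so these values describe the lines and not a class of tumours.

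The effects of the shared ASOs were compared between these lines as an interaction, SK-N-BE(2)c minus NGP. Only VIM, SNAI2 and TWIST1, which passed the filter in both lines, are read here. For ASO2, 1 of these 3 was higher and 0 lower, beside 8.79% and 7.95% of all genes. That member was TWIST1, whose difference from NCA was less negative in SK-N-BE(2)c by 0.34 ± 0.08 (limma adjusted p = 0.00594). For the 0 lower members, edgeR on recovered reads gave 0 too, and none had an unadjusted p under 0.05. For ASO10, 0 were higher and 1 lower, beside 8.09% and 8.78%. That member was SNAI2, with -0.56 ± 0.19 (limma adjusted p = 0.0451). Its call was lost without any of NGP ASO2 replicates 1 and 3, NGP ASO10 replicates 1 and 3, NGP NCA replicates 1 and 2, SK-N-BE(2)c ASO2 replicates 1 and 2, SK-N-BE(2)c ASO10 replicates 2 and 3, and SK-N-BE(2)c NCA replicates 1 and 3 (limma adjusted p = 0.0502 to 0.133), and also without the filter and after TMM scaling (limma adjusted p = 0.0832 and 0.0842). Among the 0 higher of these members, VIM had an unadjusted p under 0.05 (0.16 ± 0.06, limma adjusted p = 0.0820), and edgeR called 0. VIM passed after TMM scaling (0.25, limma adjusted p = 0.00493). Rescaling to the same total took the split of all genes for ASO2 from 1278 higher and 1155 lower to 850 and 1731, and TMM scaling took that for ASO10 from 1176 and 1277 to 2144 and 808.

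TEAD genes, whose products carry YAP1 and TAZ to DNA, were expressed in all 3 lines. TEAD1 had a mean of 2680 ± 249 (SD, n = 3) in NGP controls, 2870 ± 93.7 in SK-N-BE(2)c controls and 2300 ± 67.2 (n = 4) in IMR32 controls. It fell with both ASOs in NGP (-0.48 and -0.21, limma adjusted p = 1.66e-07 and 0.00428) and in SK-N-BE(2)c (-0.86 and -0.60, limma adjusted p = 1.66e-12 and 4.81e-09). With ASO1 it fell in IMR32 (-0.25, limma adjusted p = 0.000648) and stood at 0.02 there with ASO2 (limma adjusted p = 0.823). TEAD3 rose in NGP (0.34 with ASO2 and 0.32 with ASO10, limma adjusted p = 0.00675 and 0.0108) and, with ASO2 alone, SK-N-BE(2)c showed a rise of 0.54 (limma adjusted p = 0.00150). TEAD2 and TEAD4 were tested in IMR32 only, since their reads in the other lines reached at most 9 in a library. The kinase gene LATS1 rose in 5 of 6 groups, by 0.13 to 0.37, and in the remaining group, SK-N-BE(2)c ASO10, stood at -0.13 (limma adjusted p = 0.127). LATS2, a kinase gene that YAP1 itself drives, had a mean of 110 ± 6.47 in IMR32 controls, at most 4 reads in a library in NGP and 0 reads in every SK-N-BE(2)c library.

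Counts over gene lists are read against the share of all genes called in the same contrast and direction. Those shares were 13.6% higher and 14.4% lower with ASO1 and 17.6% and 14.8% with ASO2 in IMR32, 30.6% and 28.1% with ASO2 and 26.8% and 27.6% with ASO10 in NGP, then 33.6% and 33.4% with ASO2 and 27.8% and 31.1% with ASO10 for SK-N-BE(2)c. A list count near its share, such as 4 of 15 Hippo genes lower or 3 of 13 mesenchymal-state factors higher with ASO10 in NGP, is not a result about the list.

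Of 20 genes of the Hippo kinases, adaptors and TEAD factors, all were tested for IMR32, 15 for NGP and 14 for SK-N-BE(2)c. In IMR32, 5 rose and 3 fell with ASO1 (8 and 3 after rescaling to the same total or TMM scaling), and 9 rose and 0 fell with ASO2. In NGP, 8 rose and 7 fell with ASO2 and 6 rose and 4 fell with ASO10, while in SK-N-BE(2)c 7 rose and 7 fell with ASO2 and 2 rose and 7 fell with ASO10. The medians ran from -0.16 (SK-N-BE(2)c ASO10) to 0.31 (NGP ASO2). SAV1, the scaffold of the MST kinases, rose with both ASOs in IMR32 (0.48 and 0.24, limma adjusted p = 1.82e-05 and 0.0103) and in NGP (0.93 and 0.39, limma adjusted p = 2.25e-07 and 0.00656). SAV1 for SK-N-BE(2)c rose with ASO2 (1.13, limma adjusted p = 1.08e-11) and stood at 0.04 with ASO10 (limma adjusted p = 0.716). STK3, which encodes the kinase MST2, fell in NGP (-0.61 and -0.99, limma adjusted p = 0.0429 and 0.00183) and in SK-N-BE(2)c (-0.83 and -0.55, limma adjusted p = 0.000227 and 0.0109).

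Among 22 YAP-TEAD target genes, which include CCN1 and CCN2, 14 were tested for IMR32, 12 for NGP and 10 for SK-N-BE(2)c, and changes went both ways. In IMR32, 5 rose and 4 fell with ASO1 and 6 rose and 2 fell with ASO2. The counts were 4 and 5 with ASO2 and 1 and 5 with ASO10 in NGP, and 2 and 6 with ASO2 and 2 and 5 with ASO10 in SK-N-BE(2)c. The medians were 0.03 and 0.18 in IMR32, 0.05 and -0.18 in NGP, and -0.61 and -0.30 in SK-N-BE(2)c, in that order of ASOs. The NGP ASO2 median was -0.02 after rescaling to the same total. RBMS3, which encodes an RNA-binding protein, fell with every ASO, with log2 fold changes of -1.16 and -1.51 in SK-N-BE(2)c, -1.14 and -1.35 in NGP, and -0.69 and -0.41 in IMR32 (limma adjusted p = 1.18e-05 or lower). GADD45A, a stress-induced growth arrest gene, rose in IMR32 (0.82 and 0.63, limma adjusted p = 9.59e-10 and 5.22e-08) and NGP (0.83 and 1.00, limma adjusted p = 7.80e-10 and 2.97e-11). It rose in SK-N-BE(2)c too (1.03 with ASO2 and 0.61 with ASO10, limma adjusted p = 1.37e-10 and 2.54e-06).

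Of 9 epithelial-mesenchymal transition factors, 5 were tested in each line, 2 of them the members SNAI2 and TWIST1. In IMR32, 3 rose and 2 fell with ASO1 and 2 rose and 2 fell with ASO2. The counts were 2 and 3 with ASO2 and 3 and 2 with ASO10 in NGP, then 1 and 2 with ASO2 and 2 and 1 with ASO10 for SK-N-BE(2)c. SNAI1, which encodes the repressor Snail, rose with every ASO. Its means were 166 ± 7.10 with ASO1, 163 ± 14.8 with ASO2 and 87.4 ± 9.01 with NCA in IMR32 (SD, n = 4), which are rises of 0.92 and 0.89 on the log2 scale (limma adjusted p = 4.47e-07 and 9.86e-07). In NGP they were 1030 ± 25.9 with ASO2, 1063 ± 88.2 with ASO10 and 660 ± 12.1 with NCA (n = 3; 0.64 and 0.68, limma adjusted p = 1.80e-08 and 6.75e-09). SK-N-BE(2)c gave 0.68 with ASO2 and 0.37 with ASO10 (limma adjusted p = 1.96e-06 and 0.00339). ZEB2, a repressor of epithelial genes, fell in NGP (-0.69 and -0.42, limma adjusted p = 9.53e-08 and 0.000136). In IMR32, ZEB2 went opposite ways, rising with ASO1 (0.20, limma adjusted p = 0.00325) and falling with ASO2 (-0.19, limma adjusted p = 0.00432). For SK-N-BE(2)c, ZEB2 fell with ASO2 (-1.38, limma adjusted p = 5.44e-14) and stood at -0.17 with ASO10 (limma adjusted p = 0.0827).

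Mesenchymal-state transcription factors were counted next. Of 20 such genes, 15 were tested in IMR32 (6 rose and 0 fell with ASO1, 7 and 2 with ASO2), 13 in NGP (10 and 0 with ASO2, 3 and 4 with ASO10) and 9 in SK-N-BE(2)c (4 and 0 with ASO2, 1 and 5 with ASO10). In NGP, the shares of all genes called were 30.6% higher and 28.1% lower with ASO2, and 26.8% and 27.6% with ASO10. The median in NGP was 0.79 with ASO2 and -0.27 with ASO10, beside 0.009 and -0.026 for all genes. KLF4, a zinc finger factor, rose in IMR32 (1.55 and 1.08, limma adjusted p = 5.54e-07 and 5.19e-05) and NGP (1.53 and 1.12, limma adjusted p = 7.41e-08 and 9.05e-06). IRF1, an interferon-response factor, rose with both ASOs in IMR32 and SK-N-BE(2)c. In NGP, IRF1 stood at 4.02 ± 0.819 with NCA, 21.1 ± 10.2 with ASO2 and 13.4 ± 4.65 with ASO10 (SD, n = 3). It passed the filter there only through the ASO groups, so it had to be higher and is given as levels. FOSL1, an AP-1 subunit, rose in NGP from 10.4 ± 2.70 to 26.3 ± 9.96 with ASO2 and 29.3 ± 3.48 with ASO10 (SD, n = 3, limma adjusted p = 0.00155 and 0.000405).

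Matrix, adhesion and contractile genes of the mesenchymal state also went both ways. Of 31, 19 were tested in IMR32 (2 rose and 4 fell with ASO1, 2 and 3 with ASO2), 18 in NGP (8 and 1 with ASO2, 6 and 5 with ASO10) and 20 in SK-N-BE(2)c (7 and 6 with ASO2, 5 and 8 with ASO10). After rescaling to the same total, the SK-N-BE(2)c ASO2 counts were 4 and 7 and the median moved from 0.02 to -0.10. ACTA2, the smooth muscle actin, rose in NGP from 45.6 ± 7.08 to 62.4 ± 11.5 with ASO2 and 177 ± 10.4 with ASO10 (SD, n = 3; limma adjusted p = 0.0322 and 7.86e-10). ACTA2 also rose for SK-N-BE(2)c (0.52 and 0.89, limma adjusted p = 0.000111 and 5.79e-08), but in IMR32 it fell with ASO1 (-0.85, limma adjusted p = 0.0108) and stood at 0.39 with ASO2 (limma adjusted p = 0.226). TAGLN, the actin-binding protein transgelin, rose in SK-N-BE(2)c from 26.1 ± 8.79 to 52.7 ± 22.3 with ASO2 and 294 ± 14.7 with ASO10 (limma adjusted p = 0.000469 and 2.63e-13). TAGLN in NGP rose with ASO10 (2.20, limma adjusted p = 2.50e-09) and stood at -0.10 with ASO2 (limma adjusted p = 0.711). CDH2, the neuronal and mesenchymal cadherin, fell in SK-N-BE(2)c from 1625 ± 96.1 to 605 ± 39.6 with ASO2 (limma adjusted p = 7.92e-16) and to 1442 ± 127 with ASO10 (limma adjusted p = 0.0367). CDH2 also fell in NGP (-1.45 with ASO2 and -0.20 with ASO10, limma adjusted p = 8.74e-14 and 0.0328). In IMR32 it fell with ASO2 (-0.32, limma adjusted p = 0.00317) and stood at -0.18 with ASO1 (limma adjusted p = 0.0970).

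Notch genes around NOTCH2 were tested for 17 of 18 in IMR32 (3 rose and 5 fell with ASO1, 6 and 3 with ASO2), 15 in NGP (6 and 3 with ASO2, 6 and 4 with ASO10) and 12 in SK-N-BE(2)c (4 and 4 with ASO2, 4 and 6 with ASO10). In NGP, where NOTCH2 was lower with ASO10, its paralogue NOTCH1 stood at 5.36 ± 3.87 with NCA (SD, n = 3). It stood at 26.6 ± 13.7 with ASO2 and 45.6 ± 3.35 with ASO10. NOTCH1 passed the filter there only through the ASO groups, so it had to be higher and is given as levels. The NGP counts above include it. NOTCH1 in IMR32 fell with ASO1 (-0.15, limma adjusted p = 0.0389) and rose with ASO2 (0.44, limma adjusted p = 5.96e-06). The other paralogues, chosen after their values were seen, moved otherwise in NGP. NOTCH3 fell there with ASO2 (-2.07, limma adjusted p = 7.57e-10) and rose with ASO10 (1.65, limma adjusted p = 4.19e-08), while NOTCH4 fell with ASO10 (-0.65, limma adjusted p = 0.0181) and stood at -0.36 with ASO2 (limma adjusted p = 0.177). The ligand gene JAG1 rose in NGP from 479 ± 39.6 to 1388 ± 99.9 and 677 ± 14.4 (limma adjusted p = 2.63e-14 and 3.74e-06). The target gene HEY1 rose in IMR32 (1.30 and 0.87, limma adjusted p = 2.56e-06 and 0.000256) and in SK-N-BE(2)c (0.90 and 0.34, limma adjusted p = 1.59e-11 and 0.000224). HEY1 in NGP rose with ASO2 (1.36, limma adjusted p = 1.07e-10) and stood at 0.11 with ASO10 (limma adjusted p = 0.397). The co-activator gene MAML3 fell in NGP (-0.75 and -1.01, limma adjusted p = 1.29e-06 and 1.14e-08) and in SK-N-BE(2)c (-1.11 and -0.92, limma adjusted p = 7.84e-10 and 5.03e-08). MAML3 fell in IMR32 too (-0.45 with ASO1 and -0.37 with ASO2, limma adjusted p = 3.41e-07 and 5.43e-06).

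The 12 adrenergic markers were tested in every line. They summed to 32470 to 34040 in IMR32 controls, 30790 to 33680 with ASO1 and 29860 to 31880 with ASO2. In NGP the sum was 55460 to 58290 with NCA, 50230 to 52090 with ASO2 and 44800 to 46980 with ASO10, and in SK-N-BE(2)c it was 62440 to 69480, 60060 to 62560 and 55770 to 56770. Of the 12, 4 fell with ASO1 and 4 with ASO2 in IMR32, 7 with ASO2 and 10 with ASO10 in NGP, and 7 and 9 in SK-N-BE(2)c, while 2, 1, 2, 0, 4 and 0 rose in that order. After rescaling to the same total, 2 rose and 7 fell with ASO2 in SK-N-BE(2)c. DDC, an enzyme gene of catecholamine synthesis, fell in NGP (-0.33 and -0.65, limma adjusted p = 0.000106 and 5.64e-09) and SK-N-BE(2)c (-0.53 and -0.64, limma adjusted p = 4.17e-09 and 2.05e-10).

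**Figure D5:**
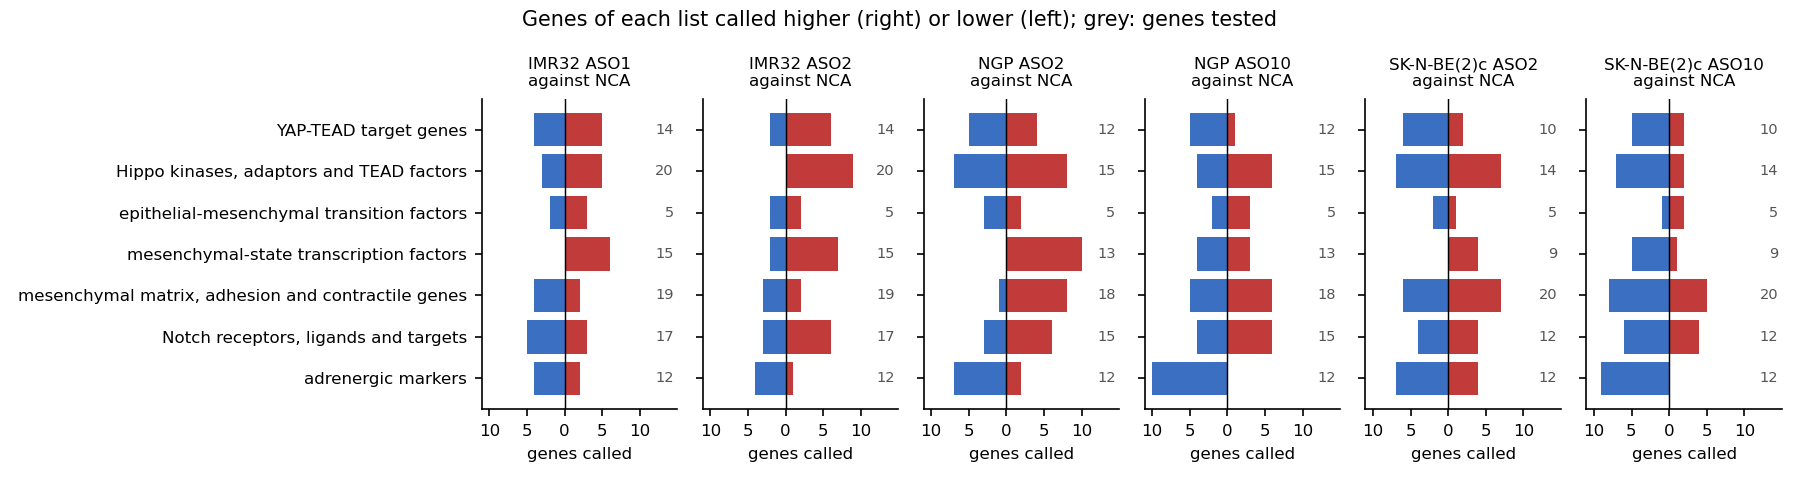
Number of genes of each list called higher (right of 0) or lower (left of 0) than NCA at a limma adjusted p under 0.05, by ASO group, with the number of genes tested in grey. Mesenchymal-state factors extend to the right with ASO2 in NGP (10 higher, 0 lower), and adrenergic markers extend to the left with ASO10 (9 lower for SK-N-BE(2)c and 10 for NGP).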

How the data were processed

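RNA-seq of 30 libraries in 9 groups was used. Each line has a deposited table of normalized counts, per the labels; this signal unit was read from the deposited values as counts divided by a size factor per library. Per the submitters' processing notes, the tools were FastQC 0.11.8, cutadapt 1.18, STAR 2.6.0, HTSeq 0.6.1 and DESeq2 1.42.0, with hg19 or GRCh37; their settings, and which of 2 kits (stranded total RNA, or stranded mRNA) made each library, are not given in the sources used here. The steps between low values gave each size factor, and 100% of values came out within 0.02 of whole reads. IMR32 was scaled on its own and NGP and SK-N-BE(2)c jointly, so IMR32 was not tested against them. Rows without a gene ID held 0.172% of the IMR32 values and were left out. Log2(value + 1) was tested with limma 3.58.1 (R 4.3.3, mean-variance trend, group means, means of at least 10, Benjamini-Hochberg over all genes tested, adjusted p under 0.05), after a check on simulated data. Alternatives were a pseudocount of 5, no filter, the replicate block, rescaling to equal totals, TMM, edgeR 4.0.16 on recovered reads, and leaving out each library. Exon lengths came from GENCODE 29. Members were given in full; from the other lists at most 3 genes per line, called alike with both ASOs and largest in mean change, were eligible to be named, and TEAD and LATS genes whatever they did. Members and lists were chosen with earlier results of these data known. The level of NESPR itself is not analysed here. Unused sample columns numbered 0.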

Additional observations from a re-analysis of the deposited data

Results flagged for a closer look

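In groups of 4 libraries, a member was marked where its highest or lowest library stood apart from the other 3 by Dixon's 95% criterion, which chance meets in about 1 in 20 groups; 30 groups were looked at. VIM in IMR32 ASO1 replicate 1 was 2534, above 2039 to 2068 in the other libraries. FN1 in IMR32 ASO2 replicate 1 was 446.4, above 414 to 418. SNAI2 in IMR32 NCA replicate 1 was 11.8, below 22.0 to 22.97 in the other controls. All 3 are replicate 1 of an IMR32 group, and IMR32 NCA replicate 1 was also the highest VIM control (2365.5), so these are not independent events.

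Members also stood out where an ASO's effect differed between SK-N-BE(2)c and NGP by limma's interaction test. TWIST1 differed for ASO2 by 0.341 on the log2 scale (limma adjusted p = 0.00594), as its difference from NCA was -0.11 in SK-N-BE(2)c against -0.45 in NGP. SNAI2 differed for ASO10 by -0.558 (limma adjusted p = 0.0451), being -0.26 in SK-N-BE(2)c against 0.30 in NGP.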

How the results depend on the processing

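The 75 log2 fold changes of single members were each recomputed under 8 alternatives (6 settings and the lowest and highest value with 1 library left out). They include CD44, FN1, CCN1 and NOTCH2 in the joint fit, which entered it only through 1 line. Their differences between the lines had to stay past the threshold, so the counts that follow overstate stability. Of these 600 values, 571 kept their direction and their side of the threshold, 13 were no longer past it, 16 came past it and 0 reversed; 6 values past the threshold in neither fit changed sign (leave-one-out values not counted). edgeR on recovered reads changed none of the 75 calls, and it called 2531 to 11302 genes per contrast, 0.988 to 1.07 times the number called by limma. With 1 library left out, the number of members called ran from 1 to 4 in IMR32 ASO1 against ASO2 (3 with all libraries), from 3 to 5 in NGP ASO10 against NCA (5 with all), from 2 to 4 in SK-N-BE(2)c ASO10 against NCA (2 with all) and from 0 to 1 for the ASO10 effect in SK-N-BE(2)c minus NGP (1 with all). That last number counts every member of the joint fit, and was 2 with a pseudocount of 5 and 0 without the filter. The member added with a pseudocount of 5 is NOTCH2, at 0 to 8 reads per SK-N-BE(2)c library. NOTCH2 entered the joint fit only through NGP, so its call is not read as a result. The filter changes the number of genes adjusted over, and the other causes were not tested. Replicate numbers are shared between groups, but no label says what they mark, and correlations of same-numbered libraries ran from -0.065 to 0.332 (0.261 to 0.332 for replicate 1 of IMR32, above the other numbers) without being over 0.1 for every pair of any 2 groups. With the replicate block, FN1 in IMR32 ASO2 against NCA (limma adjusted p = 0.0329), YAP1 in IMR32 ASO1 against ASO2 (0.00910) and NOTCH2 in NGP ASO2 against NCA (0.0464) came past the threshold and no other member's call changed. Depth limits CCN2 in every line, YAP1 outside IMR32, NOTCH2 outside NGP and WWTR1 throughout: WWTR1 in SK-N-BE(2)c ASO2 against NCA, at 7 and 3 reads, has a counting interval from 0.560 to 14.7 for its ratio.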
